A study of Mus musculus with 18 samples.

Results

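Smooth muscle ion channel genes were followed in the aorta of *Tspan2* CArG box mutant mice, and the 10 genes were *Cacna1c*, *Kcnma1*, *Kcnmb1*, *Kcnj8*, *Abcc9*, *Itpr1*, *Ryr3*, *Trpc6*, *Ano1* and *Kcna5*. They were taken by symbol, and all 10 of them stood among the 55453 gene symbols of both count tables. Bulk RNA-seq had been run on single mouse aortae, which the study describes as cleaned of periadventitial tissue, though brown fat markers were found in the libraries. There was an experiment on homology-directed repair (HDR) and an experiment on prime editor 2 (PE2). In both, the edited site was the CArG box of the *Tspan2* promoter, the element bound by serum response factor (SRF). The HDR experiment held 5 wild-type (WT_2 to WT_6) and 5 *sg/sg* libraries (Mut_2 to Mut_6) from C57BL/6 mice of 12 weeks, in which Cas9, an sgRNA and a single-stranded donor had changed adjacent bases of the box. The PE2 experiment held 4 wild-type and 4 *peg/peg* libraries (replicates 1 to 4 of each) from 8-week-old mice whose strain is labelled FVB/N/B6(Cg)-Tyrc-2J/J, in which a Cas9 nickase joined to a reverse transcriptase had changed a single base of the box. Both mutants were homozygous and carried the edit in every tissue, and controls were wild type at the box. Females and males were used in the HDR experiment, but its columns carry no sex. In the PE2 experiment wild-type replicate 4 was male and the other 7 mice were female.

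Contraction of arterial smooth muscle is set by cytosolic calcium. Calcium enters through L-type channels when the membrane depolarizes and is released from the sarcoplasmic reticulum through inositol trisphosphate and ryanodine receptors, while potassium channels hyperpolarize the membrane and calcium-activated chloride channels depolarize it. *Cacna1c* encodes the pore of the L-type channel Cav1.2, *Kcnma1* and *Kcnmb1* the pore and the beta 1 subunit of the large-conductance calcium-activated (BK) channel, and *Kcnj8* and *Abcc9* the pore Kir6.1 and the sulfonylurea receptor SUR2 of the vascular ATP-sensitive (KATP) channel. *Itpr1* and *Ryr3* are release channels of the sarcoplasmic reticulum, *Trpc6* is a receptor-operated cation channel, *Ano1* the calcium-activated chloride channel and *Kcna5* the voltage-gated potassium channel Kv1.5. CArG boxes are common in the promoters of smooth muscle contractile genes.

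The genes lie on 6 chromosomes, and 5 of them on chromosome 6. On GRCm38, *Itpr1* lies at chr6:108213096-108551109 on the forward strand, and *Cacna1c* (chr6:118587240-119196418), *Kcna5* (chr6:126532551-126535412), *Kcnj8* (chr6:142564837-142571614) and *Abcc9* (chr6:142587862-142702315) lie on the reverse strand. The KATP genes *Kcnj8* and *Abcc9* are neighbours, 16.2 kb apart. *Ryr3* (chr2:112631355-113217096), *Ano1* (chr7:144588549-144751974) and *Kcnma1* (chr14:23289431-24014491) are on the reverse strand, and *Trpc6* (chr9:8544142-8680741) and *Kcnmb1* (chr11:33963013-33973641) on the forward strand. Exons of *Kcnma1* (1016 bases), *Ryr3* (916 bases, by *Aven*), *Itpr1* and *Abcc9* are overlapped by exons of genes on the other strand. Since the strand setting of the counting is not stated, reads in those overlaps could not be assigned to either gene with certainty.

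Because the edited element was a CArG box, the start site windows of the channel genes were searched for the same motif, and the matches are printed here. The windows, from 250 bases before to 50 bases after each start, are those of RefSeq on GRCm38.p6. A box farther upstream, as the study describes for human *TSPAN2*, could not be found in such windows. The table holds windows of 8 of the 10 genes (not of *Itpr1* and *Ryr3*). A CArG box with no mismatch was found in the window of *Trpc6* alone, against 1.629% of all 32851 windows of this length. Matches with 1 mismatch lay in 2 of the 3 windows of *Cacna1c* and in those of *Kcnj8* and *Trpc6*, and 21.114% of all windows held a match with at most 1 mismatch. The motif reads the same on both strands, its bases are in capitals below, and positions are counted from the start site. A match is a description of these letters and not of binding.
Trpc6, position -122, no mismatch, chr9:8543995-8544054, forward strand: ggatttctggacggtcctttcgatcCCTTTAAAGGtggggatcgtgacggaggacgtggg
Trpc6, position -227, 1 mismatch, chr9:8543892-8543949, forward strand: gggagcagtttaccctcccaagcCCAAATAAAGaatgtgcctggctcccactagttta
Kcnj8, position -46, 1 mismatch, chr6:142571626-142571685, reverse strand: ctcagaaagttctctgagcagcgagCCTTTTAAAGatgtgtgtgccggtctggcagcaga
Cacna1c, position -30, 1 mismatch, chr6:119196410-119196464, reverse strand: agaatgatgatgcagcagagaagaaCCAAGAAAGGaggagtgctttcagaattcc
Cacna1c, position -84, 1 mismatch, chr6:118758024-118758083, reverse strand: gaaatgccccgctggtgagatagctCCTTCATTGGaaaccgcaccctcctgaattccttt

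HDR libraries held 17290992 to 24880385 counts each, and PE2 libraries 38820265 to 44895615. *Tspan2* itself was lower in every mutant library than in every wild-type library, by 3.07 (SE 0.27) on the log2 scale in HDR aorta (edgeR adjusted p = 0.00226) and by 3.45 (SE 0.29) in PE2 aorta (edgeR adjusted p = 0.0292). The PE2 call was lost in 7 of the 8 fits that left out 1 library (adjusted p up to 0.224), though the fold change kept its direction in all of them. The summed level of 8 smooth muscle markers was 16829 to 37268 CPM in the HDR and 27484 to 54652 CPM in the PE2 libraries, where CPM stands for counts scaled to a common library size after TMM. A pair of libraries had the most skeletal and cardiac muscle markers of their experiments. *Peg/peg* replicate 3 had 1133 CPM of 5 skeletal muscle markers and 524 CPM of 5 cardiac markers. Its summed smooth muscle, fibroblast and macrophage markers were the highest of the PE2 libraries. Its summed endothelial (505 CPM) and brown fat (25.4 CPM) markers were the lowest. Brown fat markers summed to 515 to 2557 CPM in the other PE2 and 275 to 1841 CPM in the HDR libraries. Not every single marker followed its sum. *Acta2*, *Smtn*, *Lmod1*, *Col1a1* and *Dpt* were not highest in replicate 3, and the endothelial *Emcn* was highest there (60.2 CPM). HDR library WT_3 had 126 and 104 CPM of the skeletal and cardiac markers. In the other 16 libraries the skeletal markers summed to 4.73 to 70.4 CPM and the cardiac markers to 3.94 to 96.3 CPM, the highest of which were *peg/peg* replicates 2 (96.3 CPM) and 4 (37.0 CPM). The immediate early genes summed to 293.5 to 448 CPM in *peg/peg* and 91.7 to 222 CPM in PE2 wild-type aorta, so those groups did not overlap, and in HDR they ranged from 129 to 355 CPM in wild-type and from 166 to 468 CPM in *sg/sg* aorta.

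None of the 10 channel genes passed the test between genotypes in either experiment. All 10 passed the filter on low counts in each comparison, and in edgeR's quasi-likelihood test 0 of 10 had an adjusted p under 0.05 in HDR or in PE2 aorta. Over all genes tested the share was 0.00609% of 16423 genes in HDR and 0.0061% of 16401 in PE2, which in both was *Tspan2* alone. At an unadjusted p under 0.05 the count was 0 of 10 in HDR (1.98% of all genes) and 1 of 10 in PE2 (4.3% of all genes, and 3.04% in the higher direction), the 1 being *Ryr3*, higher. DESeq2 and limma-voom also called 0 of the 10 in either experiment, where DESeq2 gave no adjusted p for *Ryr3*. In no gene did all mutant libraries lie above or below all wild-type libraries, an arrangement found in 0.317% of all genes in HDR and 2.54% in PE2. The median log2 fold change of the 10 genes was 0.09 in HDR and 0.07 in PE2 aorta, beside 0.00 and 0.01 over all genes tested.

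**Figure D1:**
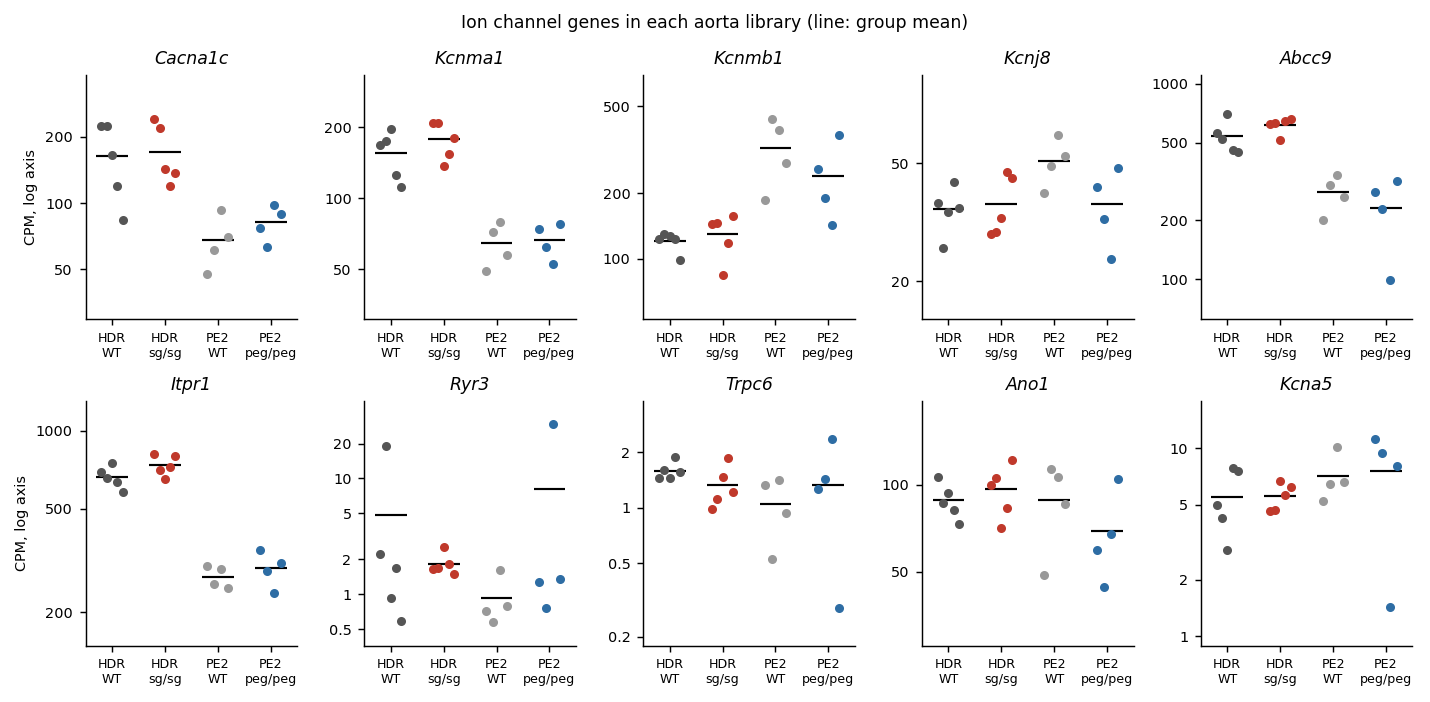
Level of each ion channel gene (CPM, log axis) in every library of the 4 groups, with points for libraries and a line for the group mean. Wild-type and mutant points overlap in all 10 panels, and single high points of *Ryr3* stand at 18.9 CPM in HDR wild type and 29.2 CPM in PE2 *peg/peg*.

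The voltage-gated entry channel *Cacna1c* varied more within a genotype than between them. It measured 224, 225, 166, 119.9 and 83.5 CPM in WT_2 to WT_6, and 239.9, 219, 143, 119 and 137 CPM in Mut_2 to Mut_6. The highest and the lowest libraries of both genotypes covered nearly the same range, and the coefficient of variation was 38.4% in wild-type and 31.5% in *sg/sg* aorta. The log2 fold change was 0.07 (SE 0.29, 95% interval -0.56 to 0.69). In PE2 aorta it measured 47.4, 61.3, 93.4 and 69.9 CPM in wild-type replicates 1 to 4, and 77.0, 63.2, 98.1 and 89.5 CPM in *peg/peg*. A single *peg/peg* library lay above the highest wild-type library, and the log2 fold change was 0.27 (SE 0.22, interval -0.23 to 0.77). The edgeR adjusted p was 1.00 in HDR and 0.861 in PE2 aorta.

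The BK channel pore *Kcnma1* was close between genotypes. It ranged from 112 to 197 CPM in wild-type and from 137 to 209 CPM in *sg/sg* aorta (log2 fold change 0.19, SE 0.18, interval -0.19 to 0.58), and from 49.0 to 79.7 CPM in wild-type and 52.8 to 77.6 CPM in *peg/peg* aorta (0.05, SE 0.18, interval -0.37 to 0.47). Its partner *Kcnmb1*, which raises the calcium sensitivity of the channel, measured 123, 129.8, 127, 124 and 98.9 CPM in WT_2 to WT_6 and 145, 146, 84.6, 118 and 158 CPM in Mut_2 to Mut_6. In Mut_2, Mut_3 and Mut_6 it lay above and in Mut_4 below all wild-type libraries, and the log2 fold change was 0.11 (SE 0.16, interval -0.24 to 0.46). In PE2 aorta *Kcnmb1* measured 185, 437, 390.3 and 275 CPM in wild-type and 258, 190.5, 143 and 368 CPM in *peg/peg* replicates 1 to 4. The *peg/peg* mean was lower, at 239.8 ± 97.7 against 322 ± 114 CPM (SD, n = 4 each), but the groups overlapped and the interval of the log2 fold change, -1.24 to 0.39 around -0.43 (SE 0.35), included 0.

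Of the KATP subunits, the pore gene *Kcnj8* had, with all libraries fitted, the largest PE2 fold change of the 10 genes apart from *Ryr3*. It measured 39.6, 49.0, 62.1 and 52.8 CPM in PE2 wild-type and 41.4, 32.3, 23.8 and 48.3 CPM in *peg/peg* replicates 1 to 4. Replicates 2 and 3 of *peg/peg* lay below the lowest wild-type library. The log2 fold change was -0.48 (SE 0.23, interval -1.01 to 0.04), with an edgeR adjusted p of 0.861 and an exact permutation p of 0.114. Without *peg/peg* replicate 3 it was -0.33 (SE 0.18), and those of *Kcna5* (0.42) and *Ano1* (-0.36) were then larger in size. In HDR aorta *Kcnj8* measured 36.6, 25.9, 34.2, 43.2 and 35.4 CPM in WT_2 to WT_6 and 28.8, 29.4, 32.7, 46.5 and 44.4 CPM in Mut_2 to Mut_6, with a log2 fold change of 0.05 (SE 0.17, interval -0.32 to 0.43).

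*Abcc9*, the regulatory subunit of the same channel, was at 202, 304.6, 343 and 265 CPM in PE2 wild-type and at 281, 228, 99.7 and 317.02 CPM in *peg/peg* replicates 1 to 4. Replicates 1, 2 and 4 of *peg/peg* lay within the wild-type range and replicate 3 lay at 0.355 times the median of the others. The log2 fold change was -0.27 (SE 0.34, interval -1.05 to 0.51), and -0.03 without replicate 3. In HDR aorta *Abcc9* ranged from 450.0 to 698 CPM in wild-type and from 519 to 664 CPM in *sg/sg* libraries, and the log2 fold change was 0.20 (SE 0.14, interval -0.11 to 0.51).

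Of the release channels, *Itpr1* was the steadiest of the 10 genes, with coefficients of variation between 9.22% and 15.6% in the 4 groups. It ranged from 580.4 to 752 CPM in wild-type and 651 to 814 CPM in *sg/sg* aorta, and from 247 to 300.5 CPM in wild-type and 238 to 348 CPM in *peg/peg* aorta. Its log2 fold changes, 0.16 (SE 0.12, interval -0.10 to 0.41) in HDR and 0.11 (SE 0.14, interval -0.22 to 0.43) in PE2, had the narrowest intervals of the 10 genes.

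*Ryr3*, a ryanodine receptor found at low levels in several tissues, differed in sign between the experiments, and 1 library decided each value. It measured 2.21, 18.9, 0.926, 1.68 and 0.592 CPM in WT_2 to WT_6 and 1.64, 1.69, 2.55, 1.82 and 1.49 CPM in Mut_2 to Mut_6, from 14 to 400 counts per library. All 5 *sg/sg* libraries lay within the wild-type range, of which WT_3 set the top. In PE2 aorta it measured 0.713, 0.576, 1.63 and 0.785 CPM in wild-type and 1.28, 0.763, 29.2 and 1.36 CPM in *peg/peg* replicates 1 to 4, from 23 to 1329 counts. *Peg/peg* replicate 3 held 89.6% of its group's summed CPM, and WT_3 held 77.8% of the HDR wild-type sum.

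The log2 fold change of *Ryr3* was -1.40 (SE 0.82, interval -3.19 to 0.39) in HDR and 3.13 (SE 1.25, interval 0.26 to 6.00) in PE2 aorta, with edgeR adjusted p of 1.00 and 0.861. Without WT_3 the HDR value turned to 0.45 (SE 0.37), and without *peg/peg* replicate 3 the PE2 value was 0.28 (SE 0.44). The libraries with the highest *Ryr3* were the libraries with the highest skeletal and cardiac markers, and the part of other muscle in these values was not tested. Over single markers, *peg/peg* replicate 3 had 756 CPM of *Acta1*, 518 CPM of *Tnnt2* and 300.4 CPM of *Ckm*, the actin, troponin T and creatine kinase of striated muscle. The skeletal marker *Tnnt3* was also high in it, at 74.2 CPM against 1.65 to 4.67 CPM in the other PE2 libraries. The fast and cardiac myosins were low in it, with 0.988 CPM of *Myh4*, 1.34 CPM of *Myh1* and 1.34 CPM of *Myh6*. *Tnnt2* made up most of its cardiac sum, with *Tnni3* at 1.69 and *Myl7* at 2.88 CPM. These 2 were at 13.97 and 16.2 CPM in *peg/peg* replicate 2. In WT_3 *Acta1* was at 76.9, *Tnnt2* at 74.96, *Myh6* at 20.8 and *Myh4* at 0.331 CPM. Mut_5, which came next in skeletal markers with 70.4 CPM and 31.1 CPM of *Myh4*, had 1.82 CPM of *Ryr3*. *Peg/peg* replicate 2, with 96.3 CPM of cardiac markers and 42.3 CPM of *Myh6*, had 0.763 CPM of *Ryr3*, the lowest of its group.

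**Figure D2:**
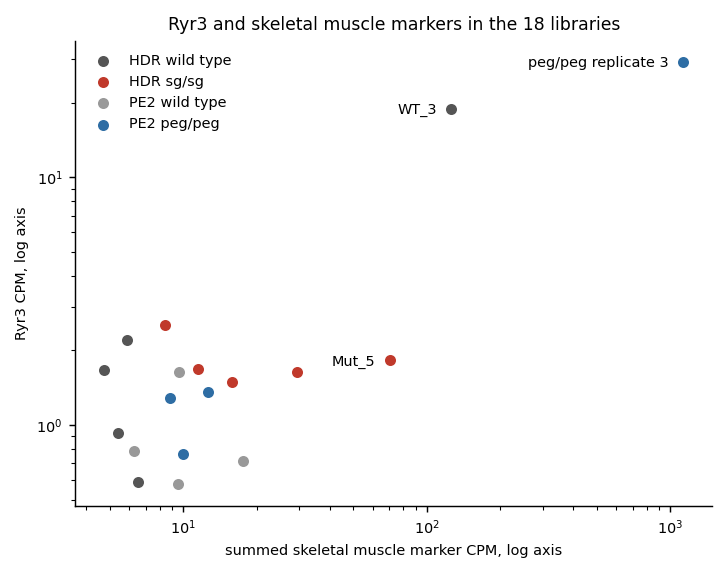
*Ryr3* (CPM) against the summed CPM of 5 skeletal muscle markers in the 18 libraries, both on log axes, coloured by group. WT_3 (126 and 18.9 CPM) and *peg/peg* replicate 3 (1133 and 29.2 CPM) stand apart, while Mut_5 with 70.4 CPM of the markers is at 1.82 CPM of *Ryr3*.

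The receptor-operated channel *Trpc6* was rare, with 11 to 108 counts per library. It measured 1.46, 1.61, 1.46, 1.87 and 1.56 CPM in WT_2 to WT_6 and 0.982, 1.11, 1.47, 1.87 and 1.224 CPM in Mut_2 to Mut_6. Mut_2, Mut_3 and Mut_6 lay below all wild-type libraries, and the log2 fold change was -0.25 (SE 0.23, interval -0.75 to 0.24). In PE2 aorta it ranged from 0.526 to 1.41 CPM in wild-type and from 0.287 (replicate 4) to 2.37 CPM (replicate 3) in *peg/peg* libraries, and the interval of the log2 fold change, -1.01 to 1.71 around 0.35, was wide enough that a 2-fold difference in either direction was not detectable at this depth and spread.

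The chloride channel *Ano1* measured 107, 86.8, 94.1, 81.8 and 73.4 CPM in WT_2 to WT_6 and 100.0, 106, 71.0, 83.3 and 123 CPM in Mut_2 to Mut_6 (log2 fold change 0.13, SE 0.15, interval -0.21 to 0.46). In PE2 aorta it measured 48.6, 114, 106 and 85.7 CPM in wild-type and 59.3, 44.2, 67.6 and 105 CPM in *peg/peg* replicates 1 to 4. The PE2 groups overlapped over most of their range, with *peg/peg* replicate 2 below all wild-type libraries, and the log2 fold change was -0.36 (SE 0.33, interval -1.11 to 0.39).

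*Kcna5* measured 4.98, 4.25, 2.87, 7.84 and 7.57 CPM in WT_2 to WT_6 and 4.64, 4.68, 6.73, 5.66 and 6.23 CPM in Mut_2 to Mut_6, and all *sg/sg* libraries lay within the wild-type range. Its log2 fold change was 0.02 (SE 0.26, interval -0.56 to 0.60). In PE2 aorta it measured 5.25, 6.44, 10.2 and 6.62 CPM in wild-type and 11.2, 9.44, 1.43 and 8.08 CPM in *peg/peg* replicates 1 to 4. Replicate 3 was at 0.151 times the median of the other *peg/peg* libraries. This library with the most *Ryr3* had the least *Kcna5*, *Kcnj8*, *Abcc9*, *Kcnmb1* and *Itpr1* of all PE2 libraries. It also had the most *Cacna1c* and *Trpc6*, while *Kcnma1* and *Ano1* stood at neither end. The log2 fold change in PE2 was 0.08 (SE 0.54, interval -1.16 to 1.32).

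**Figure D3:**
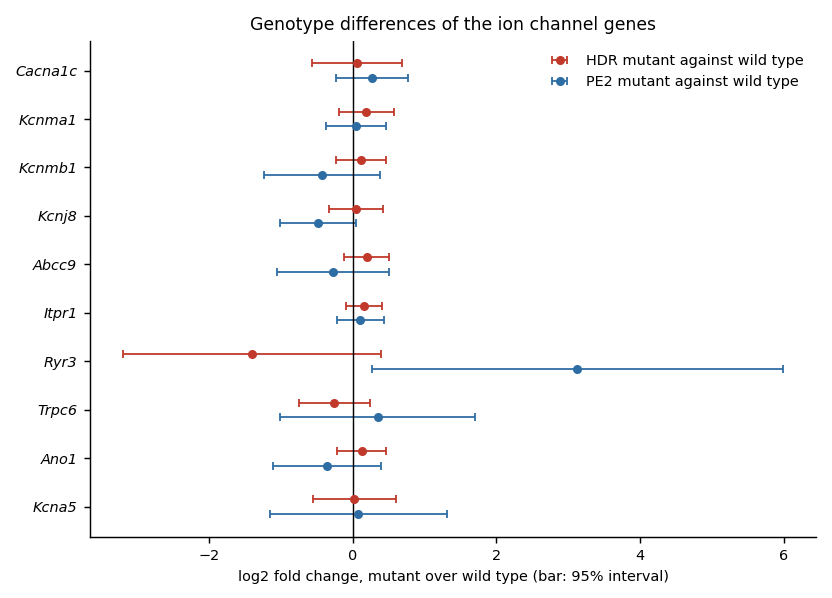
Log2 fold change of mutant over wild type for the 10 genes in HDR (red) and PE2 aorta (blue), with points for edgeR estimates and bars for 95% intervals. Of the 20 intervals, 19 include 0, and that of *Ryr3* in PE2 (0.26 to 6.00) does not, a value that 1 library decides.

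The difference between the HDR and the PE2 effect was tested as an interaction over all 18 libraries. The adjusted p was over 0.05 for all 10 genes, and for all 18094 genes tested (0.0% called, with 5.13% at an unadjusted p under 0.05, of which 1.23% of all genes were higher and 3.91% lower in HDR than in PE2). *Ryr3* had the largest difference, -4.51 on the log2 scale (SE 1.52, edgeR adjusted p = 0.898), which was 0.16 (SE 0.59) when WT_3 and *peg/peg* replicate 3 were both left out, a choice made after their values were seen. For *Kcnmb1*, *Kcnj8*, *Ano1* and *Abcc9* the HDR minus PE2 difference was 0.56, 0.55, 0.50 and 0.49, each with an interval that included 0.

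Pairs of genes, either subunits of a channel or both release channels, were also compared as count ratios within a library, which do not depend on library scaling. The exact two-sided permutation test over 4 ratios in both experiments gave 8 comparisons, with smallest possible p of 0.00794 in HDR and 0.0286 in PE2. The ratio of *Kcnmb1* to *Kcnma1* was 3.78, 6.09, 4.90 and 4.80 in PE2 wild-type and 3.49, 3.06, 2.702 and 4.74 in *peg/peg* replicates 1 to 4. Replicates 1 to 3 of *peg/peg* lay below all wild-type libraries and replicate 4 lay among them. The geometric means were 4.82 and 3.42, a difference of -0.50 on the log2 scale (exact permutation p = 0.0571, adjusted p = 0.457). In HDR aorta this ratio was 0.642 to 0.983 in wild-type and 0.615 to 0.877 in *sg/sg* libraries (exact permutation p = 0.397).

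*Kcnj8* to *Abcc9* was 0.161 to 0.199 in PE2 wild-type libraries and 0.147, 0.142, 0.239 and 0.152 in *peg/peg* replicates 1 to 4, so that replicates 1, 2 and 4 lay below and replicate 3 above all of the wild type (exact permutation p = 0.457). In HDR aorta the geometric mean was 0.0650 in wild-type and 0.0579 in *sg/sg* libraries (exact permutation p = 0.452). *Cacna2d1*, the accessory subunit of Cav1.2, stood to *Cacna1c* at 1.37 and 1.35 in HDR and at 1.40 and 1.35 in PE2 wild-type and mutant aorta. *Ryr3* to *Itpr1* was 0.00102 to 0.00554 in 16 libraries, 0.0289 in WT_3 and 0.123 in *peg/peg* replicate 3. No ratio had an adjusted p below 0.457.

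Between genes, levels were set side by side as CPM per kb of exon. In HDR wild-type aorta *Abcc9* was highest (64.4), followed by *Itpr1* (36.2) and *Kcnmb1* (28.7), and the ranges over libraries of these neighbours were separate. *Ano1* (14.2), *Kcnj8* (13.8), *Kcnma1* (9.15) and *Cacna1c* (7.73) followed, each overlapping in range with the next. *Kcna5* (1.92) lay apart from these, and *Trpc6* (0.314) and *Ryr3* (0.256) overlapped at the bottom.

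In PE2 wild-type aorta *Kcnmb1* was first with 76.8 CPM per kb and separate from *Abcc9* (33.3), which overlapped with *Kcnj8* (19.97), as did *Kcnj8* with *Itpr1* (14.99) and *Itpr1* with *Ano1* (14.2). *Kcnma1* (3.80), *Cacna1c* (3.21) and *Kcna5* (2.49) formed an overlapping middle, and *Trpc6* (0.207) and *Ryr3* (0.0488) were lowest and separate. All 10 genes came in the wild-type order in *sg/sg* aorta. In *peg/peg* aorta *Itpr1* and *Kcnj8* changed places, as did *Ryr3* and *Trpc6*, and the ranges of both pairs overlapped there. The place of *Ryr3* above *Trpc6* rests on replicate 3, since without it *Ryr3* was at 0.0598 and *Trpc6* at 0.196 CPM per kb, the wild-type order. In bulk tissue, fewer cells of a type and less RNA per cell cannot be told apart.

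Levels in wild-type aorta differed between the experiments for several of the genes. *Cacna1c*, *Kcnma1* and *Itpr1* were 2.41, 2.41 and 2.42 times higher in mean CPM in HDR than in PE2 wild-type aorta, *Abcc9* was 1.93 times higher, and *Ryr3* 5.25 times higher, a value set by WT_3. *Kcnmb1* stood at 0.374 times its PE2 level, *Ano1* at 0.998, *Kcna5* at 0.773, *Kcnj8* at 0.689 and *Trpc6* at 1.52 times. The groups did not overlap for *Kcnma1*, *Kcnmb1*, *Abcc9*, *Itpr1* and *Trpc6*, beside 47.3% of the 14761 genes tested in both experiments. The ratio moved with exon length over all genes, since the median log2 ratio was -0.72 for the 2126 genes under 2 kb, -0.42 from 2 to 4 kb, 0.03 from 4 to 8 kb, 0.58 from 8 to 16 kb and 1.25 for the 310 genes of 16 kb or more. *Cacna1c* (21191 bases of exon), *Itpr1* (18319) and *Kcnma1* (16976) had log2 ratios of 1.27 each, close to the median of their length class, and *Kcnmb1* (4191 bases) with -1.42 lay below the lower quartile of its class (-0.38). Age, strain, depth and library preparation cannot be told apart between the experiments.

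**Figure D4:**
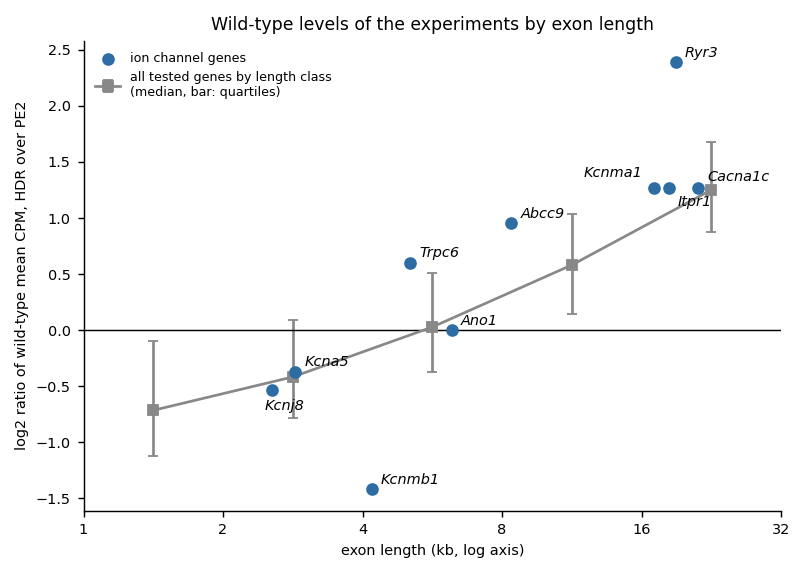
Log2 ratio of mean CPM in HDR over PE2 wild-type aorta against exon length (kb, log axis) for the 10 genes (blue) and for all genes tested in both experiments (grey squares at the middle of each length class, bars for quartiles). The class medians run from -0.72 to 1.25, and *Kcnmb1* (-1.42), *Trpc6* (0.60) and *Ryr3* (2.39) lie outside the quartiles of their classes.

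Beyond the 10 genes, 72 other genes of channels and calcium handling were listed in 8 groups, of which 62 were tested in HDR and 64 in PE2 aorta. None was called in either experiment. At an unadjusted edgeR p under 0.05 there was 1 higher and 1 lower gene in HDR (3.23% of the list, beside 1.98% of all genes) and there were 3 higher and 1 lower in PE2 (6.25%, beside 4.3% of all genes). The median log2 fold change of the list was 0.00 in HDR and 0.14 in PE2 aorta (0.01 over all genes), and in PE2 50 of the 64 were above 0. The share of all genes above 0 was not counted. *Peg/peg* replicate 3 was highest of its group for 37 and lowest for 27 of 81 genes, the 10 among them, without a count over all genes. Of these genes, *Ryr1* and *Kcnab1* were named as those with the smallest p of each experiment, and *Cacna1h*, *Kcnn2* and *Kcnk2* after their values were seen.

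*Kcnab1*, which encodes the beta 1 subunit that binds Kv1 channels such as that of *Kcna5* and speeds their inactivation, was the channel gene that separated the PE2 genotypes. It measured 142, 219, 176 and 155 CPM in wild-type and 57.0, 78.6, 5.65 and 41.5 CPM in *peg/peg* replicates 1 to 4. All 4 *peg/peg* libraries lay below all 4 wild-type libraries (groups did not overlap in 2.54% of all genes tested). The log2 fold change was -1.92 (SE 0.64, interval -3.38 to -0.46, edgeR adjusted p = 0.861). Replicate 3 was at 0.0991 times the median of the other *peg/peg* libraries, and without it the value was -1.56 (SE 0.24, adjusted p = 0.246).

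In HDR aorta *Kcnab1* measured 154, 145, 228, 212 and 150.0 CPM in WT_2 to WT_6 and 167, 184, 163, 218 and 298 CPM in Mut_2 to Mut_6 (log2 fold change 0.21, SE 0.20), so those groups overlapped. The difference between the experiments was 2.17 (SE 0.62, edgeR adjusted p = 0.870). *Kcnab1* lies at chr3:65109384-65378223 (GRCm38), on the chromosome of *Tspan2* and 37.4 Mb from it. The summed immediate early genes separated the same PE2 groups, though of the single genes only *Egr1* did so, and *Fos*, *Junb*, *Atf3* and *Ier2* overlapped. Their part in the *Kcnab1* values was not tested.

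The other PE2 genes were high in *peg/peg* replicate 3. *Cacna1h*, the pore of a T-type calcium channel, was at 107 CPM there against 3.56 to 6.28 CPM in the other *peg/peg* libraries, and *Kcnn2*, a small-conductance calcium-activated potassium channel, was at 10.7 against 0.0261 to 1.09 CPM. *Kcnk2*, a mechanosensitive two-pore potassium channel, was at 12.5 against 1.53 to 2.19 CPM. Without this library their log2 fold changes were 0.16 (SE 0.51), 1.44 (SE 1.06) and 0.65 (SE 0.54), in place of 2.83, 3.78 and 2.00. *Cacna1h* and *Kcnn2* were also highest of the HDR libraries in WT_3, at 24.5 and 3.45 CPM.

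In HDR aorta *Ryr1*, the release channel of skeletal muscle, measured 0.704, 0.473, 0.573, 0.591 and 0.676 CPM in WT_2 to WT_6 and 3.49, 0.675, 1.53, 2.85 and 1.54 CPM in Mut_2 to Mut_6. All *sg/sg* libraries but Mut_3 lay above all wild-type libraries, and the log2 fold change was 1.73 (SE 0.40, edgeR adjusted p = 1.00). The summed skeletal markers overlapped between the genotypes, at 8.37 to 70.4 CPM in *sg/sg* and 4.73 to 126 CPM in wild-type libraries. WT_3, with the most of them, had the least *Ryr1*. Of the single markers, *Myh4* alone did not overlap, at 0.792 to 31.1 CPM in *sg/sg* and 0.254 to 0.704 CPM in wild-type libraries. Non-overlap was found in 0.317% of all genes tested in HDR. Mut_2 and Mut_5 had the most of both *Myh4* and *Ryr1*, and the part of skeletal muscle in the *Ryr1* values was not tested.

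**Figure D5:**
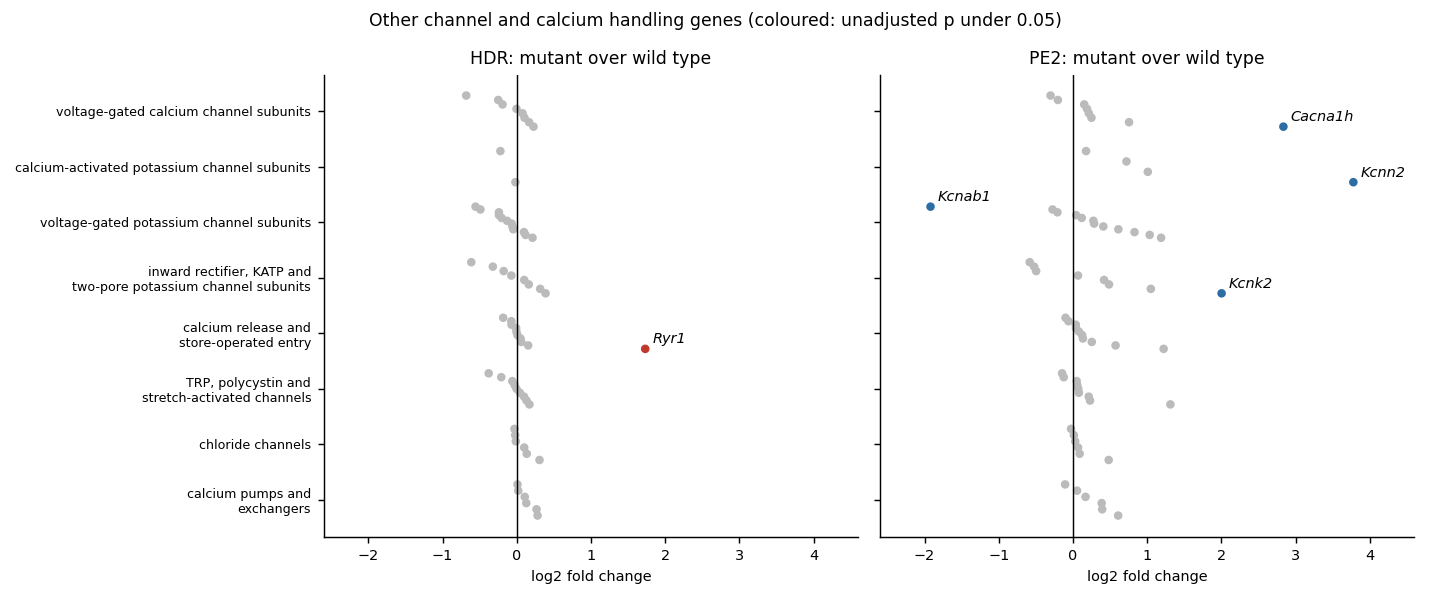
Log2 fold change of mutant over wild type for the other channel and calcium handling genes in 8 groups, in HDR (left) and PE2 aorta (right), with coloured points for an unadjusted p under 0.05 and 1 gene not drawn. None passed the adjusted threshold, and *Kcnab1* at -1.92 in PE2 is the gene whose genotypes did not overlap.

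The highest gene of each group per kb of exon is given here, as a level in bulk tissue that names no cell type. *Atp2a2*, the calcium pump of the sarcoplasmic reticulum, led the pumps and exchangers at 98.8 CPM per kb in HDR and 93.4 in PE2 wild-type aorta. *Mrvi1*, a partner of the inositol trisphosphate receptor, was at 55.4 and 46.2, and *Pkd1* at 46.5 and 24.1. *Kcnab1* was at 20.7 and 20.1, *Ano6* at 19.8 and 14.5, and *Kcnk3* at 7.94 and 16.5 CPM per kb. Among calcium channel subunits *Cacna2d1* led in HDR (17.2) and *Cacnb3* in PE2 (11.4), and among calcium-activated potassium channels *Kcnn3* led in HDR (2.00) and *Kcnn4* in PE2 wild-type aorta (1.90).

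For each gene the closest pattern over the 18 libraries was sought among the 14761 genes tested in both experiments, by the root mean square difference in log2 CPM after each experiment's mean was taken away. The smallest difference was that of *Itpr1* to *Iqgap1* (0.0759), followed by *Abcc9* to *Xpr1* (0.105), *Kcnma1* to *Tns1* (0.122), *Kcnmb1* to *Kank1* (0.127) and *Ano1* to *Wdr6* (0.131). *Kcnj8* was closest to *Ggta1* (0.147), *Trpc6* to *Chp2* (0.155) and *Cacna1c* to *Bcl9* (0.161). *Kcna5* was closest to *Cabp1* (0.299) and *Ryr3* to *Cacna1h* (0.363). *Ryr3* and *Cacna1h* were both highest in WT_3 of the HDR and in *peg/peg* replicate 3 of the PE2 libraries. A gene with little spread, such as *Itpr1* (0.158 from its own mean), comes close to many genes.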

How the data were processed

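The authors trimmed reads with fastp, aligned them with STAR 2.7.0f to GRCm38 and counted them per gene (Gencode M22) with featureCounts of Subread 1.6.4. The deposited counts of both experiments were used. The deposited tables also hold values normalized by DESeq2 1.22.1, which were not used. The labels and the study's methods differ on library kit and read length. HDR columns name the genotype but no single sample, and 0 columns of per-sample values were left unused.

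Counts were tested with edgeR 4.0.16 in R 4.3.3 (TMM, filterByExpr, glmQLFit, glmQLFTest) in each experiment alone, with Benjamini-Hochberg adjustment over all tested genes and a threshold of 0.05. The filter was run per comparison. Alternatives were DESeq2 1.42.0, limma-voom 3.58.1, other filters and scaling, replicate blocks, and each library left out. Ratios were tested with exact permutation tests in scipy 1.17.1, and 0.5 CPM was added before the logarithm when patterns were compared. Exon lengths and positions came from Gencode M21. The scripts were tested on simulated data. Nothing in the sources says that libraries of a group share an animal, and p-values measure the spread between these libraries. No pair of libraries within a group agreed within sampling noise. The 10 genes and the gene lists were chosen with earlier results of these data known. The values of 1 listed gene are not reported here. The text names the 10 genes, from the lists the highest gene per kb and the gene with the smallest p in each experiment, and the closest gene in pattern.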

Additional observations from a re-analysis of the deposited data

Results flagged for a closer look

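In 56 groups of values (the 10 genes and the 4 ratios in each of the 4 groups of libraries) 6 held a library far from the others by Dixon's ratio, which chance alone flags in about 1 in 20 groups. *Ryr3* was at 18.9 CPM in WT_3 against 0.592 to 2.21 CPM in the other HDR wild-type libraries, and at 29.2 CPM in *peg/peg* replicate 3 against 0.763 to 1.36 CPM. *Kcnmb1* was at 98.9 CPM in WT_6 against 123 to 129.8 CPM in the other HDR wild-type libraries. The log2 ratio of *Kcnj8* to *Abcc9* was -2.06 in *peg/peg* replicate 3 against -2.82 to -2.72, and that of *Ryr3* to *Itpr1* was -3.03 in the same library against -8.56 to -7.84. The log2 ratio of *Cacna2d1* to *Cacna1c* was 0.084 in *peg/peg* replicate 4 against 0.51 to 0.58. Of the 6 values, 3 are of *peg/peg* replicate 3.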

How the results depend on the processing

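None of the 10 genes and none of the other listed channel and calcium handling genes was called under any setting run. Over all genes in HDR, DESeq2 and edgeR without a filter each called the same 4, *Tspan2*, *Slc2a5*, *Atp2a1* and *Myh4*. *Atp2a1*, a calcium pump gene, was not on the list. In PE2, DESeq2 called 33 genes (23 higher). The PE2 count was 0 with the replicate block, with sex as a covariate and with female libraries alone. With 1 library left out the count was 0 to 2 in PE2 and 0 to 4 for the difference between experiments. PE2 same-numbered libraries did not deviate together (correlations from -0.254 to -0.036), so the numbers do not pair them. The HDR columns are numbered 2 to 6, but the labels do not tie these numbers to samples. Their same-numbered libraries correlated from -0.183 to 0.614, and not every library correlated best with its own number. WT_2 correlated at 0.614, 0.556 and 0.251 with Mut_2 to Mut_4, but at -0.527 and -0.623 with Mut_5 and Mut_6. WT_5 and WT_6 correlated at 0.306 to 0.533 with Mut_5 and Mut_6. The main HDR fit held no term for this shared spread, and its cause was not tested. In each HDR genotype the sample labels list the females before the males, and the females are more numerous. Whether the later columns, such as Mut_5 and Mut_6, are the males is not known. No HDR fit held a term for sex, so its part in the shared spread was not tested. A replicate block by column number, chosen after the data were seen, called 1 gene and 0 of the 10. It turned no sign among the HDR fold changes named here (*Cacna1c* 0.10, SE 0.13).

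Fold changes that turned sign are given here, and the cause was not tested. Scaling to smooth muscle markers shifted the median of all genes by -0.06 in HDR and -0.21 in PE2, and turned HDR *Kcnmb1* (-0.00431), *Kcnj8* (-0.049), *Ano1* (-0.000759) and *Kcna5* (-0.043) and PE2 *Kcnma1* (-0.11) and *Itpr1* (-0.11). PE2 *Kcna5* was -0.30 with limma-voom and -0.090 with the replicate block, and its difference between experiments was 0.40 with limma-voom. PE2 *Kcnma1* was -0.00764 with sex as a covariate and -0.00966 in females. Without WT_3 and *peg/peg* replicate 3 the difference between experiments was 0.040 for *Cacna1c*, -0.041 for *Itpr1*, 0.16 for *Ryr3* and 0.31 for *Cacna1h*.

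With 1 library left out, signs turned within these ranges. In HDR they were -0.10 to 0.21 (*Cacna1c*), -0.14 to 0.18 (*Kcna5*), -0.054 to 0.14 (*Kcnj8*), -1.69 to 0.45 (*Ryr3*) and -0.89 to 0.47 (*Cacna1h*). In PE2 they were -0.17 to 0.42 (*Kcna5*), -0.070 to 0.16 (*Kcnma1*), -0.092 to 0.67 (*Trpc6*) and -0.64 to 1.85 (*Ryr1*). For the difference between experiments they were -0.031 to 0.16 (*Itpr1*), -0.39 to 0.23 (*Kcna5*) and -0.11 to 2.37 (*Ryr1*). The log2 difference of *Ryr3* to *Itpr1* was -0.77 to 0.44 in HDR, and that of *Cacna2d1* to *Cacna1c* was -0.17 to 0.15 in HDR and -0.19 to 0.055 in PE2. *Trpc6* and *Ryr3* rest on few counts.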

Other observations

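*Peg/peg* replicate 3 stood at an end of its group for most channel genes. Of the 81 channel and calcium handling genes with counts in that group, 37 were highest and 27 lowest in this library, where the other *peg/peg* libraries were highest for 11 to 17 and lowest for 9 to 26. It held over 60% of the group's summed CPM for 12 genes, among them *Ryr3*, *Cacna1h*, *Kcnn2*, *Kcnk2* and *Trpc4*, a limit set after the values were seen. In WT_3 the same held for 6 of 82 genes of HDR wild-type aorta, which were *Ryr3*, *Cacna1h*, *Lrrc26*, *Kcnn2*, *Kcnb2* and *Trpc4*. All 6 of these genes are among the 12 of *peg/peg* replicate 3.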
